A study of Mus musculus with 66 samples.

Results

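The 7 genes described here are Cd14 and 6 interferon-response genes (Irf9, Ifit1, Ifit3, Isg15, Ifitm3 and Bst2), measured in the medial prefrontal cortex of male mice. They were chosen as every probe set annotated to these symbols, which gave 7 probe sets, 1 per gene, of the 45037 in the table. The probe set of Isg15 is also annotated to the pseudogene Gm9706, so its values cannot be assigned to Isg15 alone.

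The study used 66 Affymetrix arrays from 2 inbred lines, C57BL/6J and DBA/2J, and from 27 BXD strains, the recombinant inbred strains bred from that pair of progenitors. C57BL/6J and DBA/2J each had 3 saline and 3 ethanol arrays, and each BXD strain had 1 saline and 1 ethanol array. Ethanol was injected into the peritoneum at 1.8 g/kg. All mice, saline controls included, were 10 to 12 weeks old, spent 15 minutes restrained in a tube and 10 minutes in a light-dark box, and were killed 4 h after the injection. RNA of 4 to 5 mice was pooled for each array. Each pool is therefore 1 sample, and all groups carry the same stress of restraint and testing.

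Levels are log2 values after RMA, the authors' summary of the probes of each probe set, so that a difference of 1 is a factor of 2. Levels of different genes are not compared, because probes differ in how strongly they bind. A gene passed a test when its adjusted p in limma was below 0.05, with Benjamini-Hochberg adjustment over all genes. The fits used 13196 genes, each represented by its brightest probe set above a log2 level of 5.10. Of the 7 probe sets, 5 entered these fits. Ifit1 had a mean of 4.95 over the 66 arrays and lay below that level, and Isg15 shares its probe set, so both were tested in a fit of all 45037 probe sets.

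The labelled tissue was checked against cell markers. The neuronal markers Snap25 (13.19 to 13.47 across arrays), Slc17a7 of excitatory cortical neurons (9.36 to 11.09) and the cortical transcription factor Tbr1 (8.06 to 9.26) were present in every array. Microglia, the brain's resident macrophages, were represented by 13 markers in the fit, among them Csf1r (10.13 to 10.68) and P2ry12 (7.90 to 9.0). These are whole pieces of tissue, in which fewer cells of a type and less RNA per cell cannot be told apart. Array medians lay between 5.67 and 5.77. The processing batch of each array was not used here.

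Cd14 encodes a surface protein of microglia, monocytes and macrophages that passes bacterial lipopolysaccharide to the receptor Tlr4. Type I interferons bind the receptor Ifnar1-Ifnar2, which signals through the kinases Jak1 and Tyk2. Irf9 is a DNA-binding subunit of the complex ISGF3, which binds interferon-stimulated response elements in promoters and switches on antiviral genes. Ifit1 and Ifit3 encode cytoplasmic proteins that recognise viral RNA, Isg15 a ubiquitin-like protein that is attached to other proteins, Ifitm3 a membrane protein that blocks viral entry, and Bst2 (tetherin) a protein that holds new virus particles at the cell surface.

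The core letters of the interferon-stimulated response element, GAAA, 2 bases of any kind and GAAA again on either strand, were searched in windows from 250 bases before to 50 bases after each gene start (RefSeq, GRCm38.p6). They occur in 1131 of 32851 windows (3.44%). Of the members, 6 had a window, and 5 of these held the motif, Ifit1, Ifit3, Isg15, Ifitm3 and Bst2. The windows of Irf9 did not hold these letters, and 26 of 55 other interferon-induced genes with a window (47.3%) held them. Stretches that hold the motif are shown for Ifit1, Isg15, Bst2 and Ifitm3 because the match is what these genes share beyond their annotation; each is written 5′ to 3′ on the gene's strand, with the matching letters in capitals, read on the shown strand (GAAA) or on its complement (TTTC), and overlapping matches run together. The Ifitm3 stretch starts at the gene start and the others lie before it.
Ifit1, chr19:34640749-34640838, plus strand: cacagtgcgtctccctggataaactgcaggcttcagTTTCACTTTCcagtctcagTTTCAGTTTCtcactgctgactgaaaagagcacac
Isg15, chr4:156200849-156200938, minus strand: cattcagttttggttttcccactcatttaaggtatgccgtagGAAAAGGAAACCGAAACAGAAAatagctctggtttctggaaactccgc
Bst2, chr8:71537563-71537632, minus strand: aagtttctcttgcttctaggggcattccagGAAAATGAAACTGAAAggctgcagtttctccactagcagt
Ifitm3, chr7:141010715-141010744, minus strand: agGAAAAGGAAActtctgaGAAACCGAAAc

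Isg15 had 3 overlapping matches between 78 and 57 bases before its start, Ifit1 2 matches, and Bst2 2 overlapping matches between 130 and 115 bases before the start. A second pattern, TTC, 3 bases of any kind and GAA, was searched in the same windows and occurred in 8.30% of them. It was held by 2 of 6 members, Ifitm3 and Bst2, and by 13 of 55 other interferon-induced genes (23.6%). A match of letters is a description of the window and not a measured binding site.

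**Figure D1:**
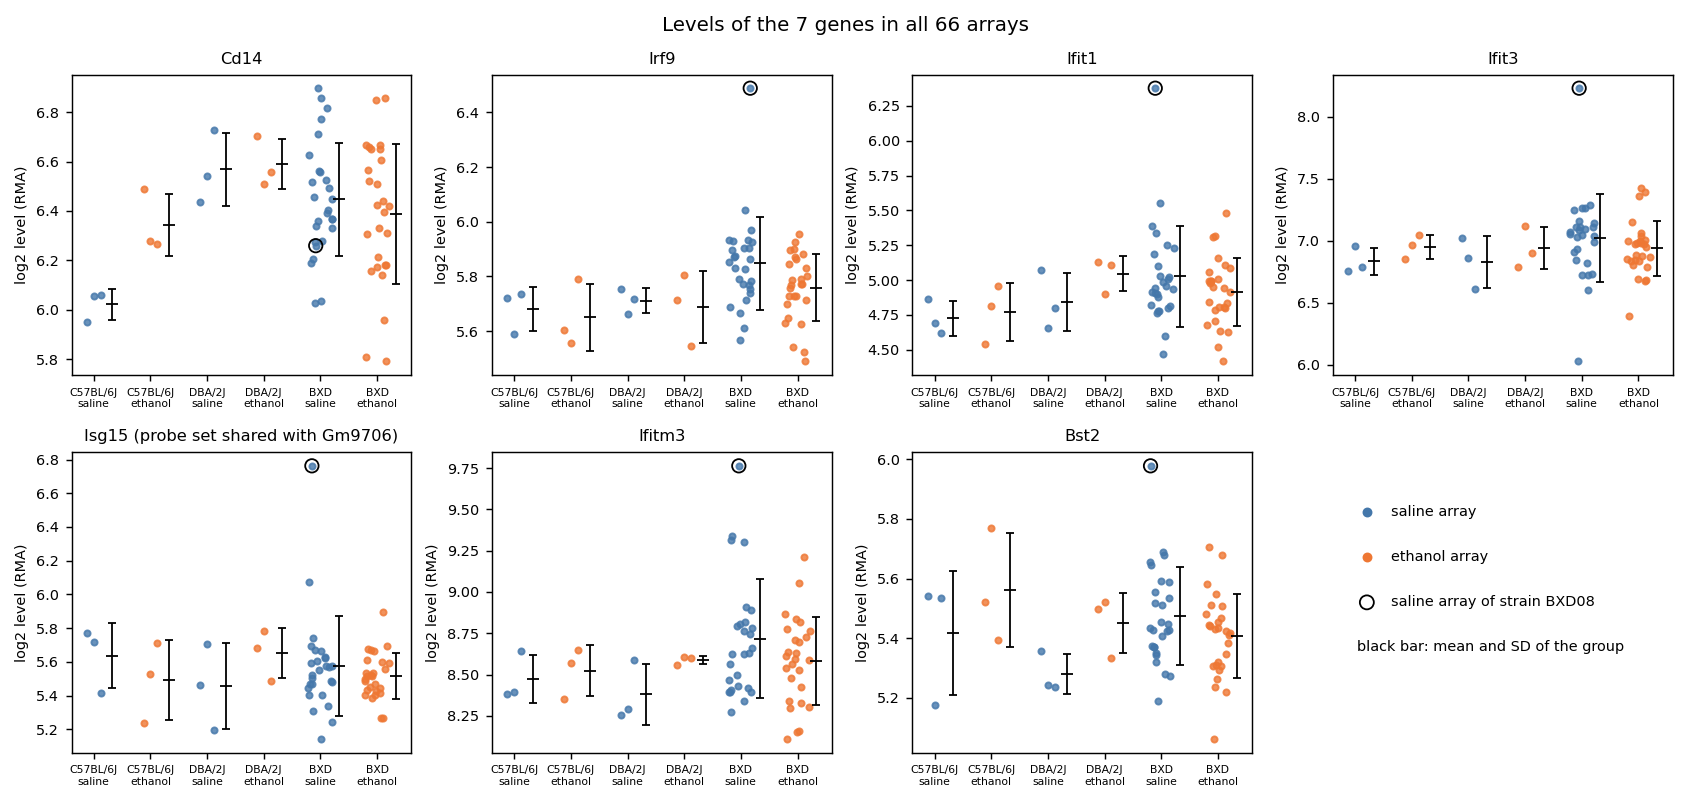
Log2 level (RMA) of each of the 7 genes in all 66 arrays, by line and treatment; blue points are saline arrays, orange points ethanol arrays, and black bars the mean and SD of a group (n = 3 for each C57BL/6J and DBA/2J group, n = 27 for each BXD group). The circled saline array of strain BXD08 is the highest of all arrays for the 6 interferon-response genes but not for Cd14, and Cd14 is lowest among the progenitors in saline C57BL/6J.

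One array stood apart for the interferon-response genes. The saline array of strain BXD08 had the highest level of all 66 arrays for Irf9, Ifit1, Ifit3, Isg15, Ifitm3 and Bst2. Over all 13196 genes, 1.53% were highest in that array. The ethanol array of the same strain did not share this, and ranked between 11 and 51 of 66 for the same 6 genes. Results across the BXD strains were therefore recomputed without BXD08.

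Ifit1 was at 6.38 in the saline BXD08 array, against a highest level of 5.55 and a median of 4.94 in the other 26 saline BXD arrays, 2.71-fold above that median. The Isg15 probe set was at 6.76, against a median of 5.54 and a next highest of 6.07, 2.34-fold above the median. Ifit3 was at 8.23, against a median of 7.05, 2.27-fold above it, and the next highest of all arrays was 7.43 in ethanol BXD01. These 3 antiviral genes lay between 4.70 and 6.87 SDs above the mean of the other saline strains. Ifitm3 was at 9.76 (median of the others 8.63, next highest 9.34), a 2.19-fold excess. Irf9, the transcription factor of the set, was at 6.49 (median 5.84, next highest 6.04), a 1.57-fold excess. Bst2 was at 5.98 (median 5.43), a 1.46-fold excess, with the next highest at 5.77 in an ethanol C57BL/6J array. Cd14 was at 6.26 in the same array, below the median of 6.43 in the other saline strains, and ranked 50 of 66.

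In the ethanol array of BXD08 the levels were 5.698 for Irf9, 5.16 for Ifit1, 7.003 for Ifit3, 5.51 for the Isg15 probe set, 8.70 for Ifitm3 and 5.32 for Bst2. All 6 lay inside the range of the other ethanol BXD arrays. The ethanol minus saline difference of BXD08 was therefore the lowest of the 27 strains for these 6 genes, from -0.66 for Bst2 to -1.25 for Isg15. Each treatment of BXD08 was 1 pool of mice, so neither value has a replicate.

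Other interferon-induced genes were high in the same array. Of 47 such genes in the fit, 19 (40.4%) were highest of all 66 arrays in saline BXD08, and no other array held more than 2 of them. The interferon gamma-induced GTPases Igtp and Iigp1 lay 2.23 and 1.89 above the median of the other saline strains, and Irgm1, of the same family, 1.05 above. Rtp4, an inhibitor of viral replication, lay 1.52 above, Lgals9, which encodes a galectin, 1.05 above, and Lgals3bp, which encodes a galectin-binding protein, 0.95 above. The median of the 47 genes was 0.26 above the other strains, beside 0.02 over all genes, and 0.08 in the ethanol array of BXD08. The list is uneven: Cmpk2 was 0.01 above its median, and Ifit2, whose product pairs with those of Ifit1 and Ifit3, 0.29 above and below the highest other strain. Among genes of the list with a promoter window, 5 of 14 highest in saline BXD08 (35.7%) held the GAAA motif. Of those highest elsewhere 9 of 22 (40.9%) held it. The second pattern was held by 2 of the 14 (14.3%) and 6 of the 22 (27.3%).

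Among interferon receptors and their signalling proteins, 1 of 18 genes was highest in this array, Irf8, a transcription factor of microglia and other myeloid cells, at 0.64 above the median. Stat2 was 0.29 and Irf1 0.27 above, both below the highest other saline strain, and Ifnar1 was 0.02 above. Of 25 genes of lipopolysaccharide recognition and signalling, the pathway of Cd14, 2 were highest there, Tlr3 and Map3k7, and the median was 0.02 below that of the other strains. Tlr3 senses double-stranded RNA rather than lipopolysaccharide.

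Across all 13196 genes, 24 lay more than 1 log2 unit above the other saline strains in saline BXD08. In 14 of these the ethanol array of BXD08 was within 0.5 of the other ethanol strains or below them. These 14 were Igtp, Iigp1, Rtp4, Irgm1, Lgals9, Ifit3 and Ifitm3, the antigen presentation genes H2-Aa, H2-Ab1, H2-Eb1, Cd74, H2-K1 and Psmb8, and the neutrophil gene S100a9. H2-Aa was 1.84 above the other strains, Cd74, the invariant chain of class II molecules, 1.41, and S100a9 1.23. The class II genes were chosen after their values were seen.

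Markers of immune cells in the same array were as follows. The mean of 13 microglia markers was 8.56, which ranked 3 of 66 (saline BXD arrays 8.11 to 8.62), with a median marker 0.28 above the other saline strains and 3 of 13 markers highest of all arrays, Aif1, C1qa and Ly86. Of 4 neutrophil and monocyte markers in the fit none was highest there, and of 3 T and B cell markers none either, with medians 0.22 and 0.02 above. The SD of the array ranked 32 and its median 42 of 66, and its correlation with the other saline BXD arrays had a median of 0.992. The part of the microglia markers and of S100a9 in the BXD08 values was not tested.

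**Figure D2:**
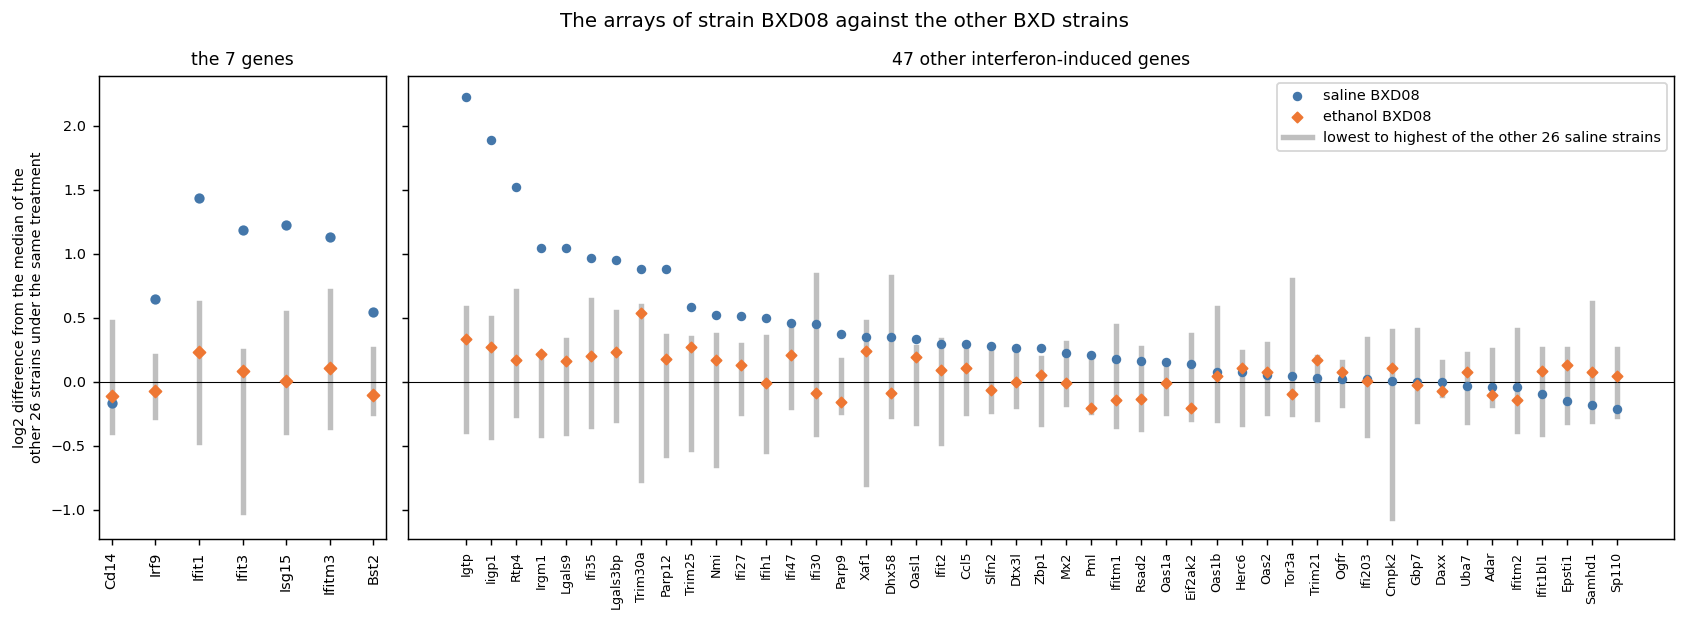
Log2 difference of the saline (blue) and ethanol (orange) array of strain BXD08 from the median of the other 26 BXD strains under the same treatment, for the 7 genes (left) and 47 other interferon-induced genes in the fit (right); grey bars span the other 26 saline strains. Cd14 lies inside the grey bar, whereas the 6 interferon-response genes of the left panel lie above theirs after saline and not after ethanol.

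The next question was how Cd14 differed between the progenitor lines. In saline C57BL/6J it was at 5.95, 6.06 and 6.06, and in saline DBA/2J at 6.44, 6.54 and 6.73. All 3 DBA/2J arrays were higher than all 3 C57BL/6J arrays, as for 15.8% of all genes (30.4% in either direction). The mean was 6.02 ± 0.06 (SD, n = 3) in C57BL/6J and 6.57 ± 0.15 (SD, n = 3) in DBA/2J, a difference of 0.55 (SE 0.09, limma adjusted p = 0.0012), or 1.46-fold (95% interval 1.27 to 1.68). Cd14 was the 1 gene of the 7 to pass in this comparison, in which 10.3% of all genes passed (4.07% higher in DBA/2J). Of the genes that passed, 39.3% were higher in DBA/2J, and 26% when each array was centred on its median. Without any 1 of the 6 arrays the difference stayed between 0.47 and 0.61, with adjusted p values up to 0.0099.

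After ethanol the gap was smaller. Cd14 was at 6.27, 6.28 and 6.49 in C57BL/6J and at 6.51, 6.56 and 6.70 in DBA/2J, and the groups again did not overlap, as for 25.1% of all genes (16.2% with DBA/2J higher). The difference was 0.25 (SE 0.09, limma adjusted p = 0.14) and did not pass, in a comparison in which 7.23% of genes passed.

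Within C57BL/6J the 3 ethanol arrays of Cd14 (6.27 to 6.49) all lay above the 3 saline arrays (5.95 to 6.06). Groups without overlap occurred in 9.85% of all genes in this comparison, and in 3.78% with ethanol higher. The difference was 0.32 (SE 0.09), or 1.25-fold (95% interval 1.09 to 1.44), with an unadjusted p of 0.0036 and a limma adjusted p of 0.92, so Cd14 did not pass. At an unadjusted p below 0.05, 2.17% of all genes were higher and 2.81% lower after ethanol in C57BL/6J. Within DBA/2J the ethanol arrays (6.51 to 6.70) overlapped the saline arrays (6.44 to 6.73), and the difference was 0.02 (SE 0.09, limma adjusted p = 0.95). The test of the difference between the responses gave -0.30 (95% interval -0.58 to -0.02, unadjusted p = 0.038, limma adjusted p = 0.59), which did not pass. At an unadjusted p below 0.05, 2.88% of all genes had a lower and 5.43% a higher response in DBA/2J. Neighbouring groups in the order of means, ethanol DBA/2J 6.59, saline DBA/2J 6.57, saline BXD 6.45, ethanol BXD 6.39, ethanol C57BL/6J 6.34 and saline C57BL/6J 6.02, overlapped in their arrays except for the lowest pair.

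Other myeloid cells, which also express Cd14, were followed by their markers. The mean level of 13 microglia markers was 8.23 to 8.43 in saline C57BL/6J and 8.10 to 8.27 in saline DBA/2J. Of the 13 markers, 3 passed as lower in DBA/2J after saline, the complement genes C1qb (-0.98) and C1qc (-0.91) and the signalling adaptor Tyrobp (-0.45), and 0 as higher. Over all 13196 genes 828 passed as lower and 537 as higher. The list was mixed, with 6 markers above 0, 7 below and a median of -0.05. After ethanol the complement genes were again lower in DBA/2J, while Ly86 (0.49) and P2ry12 (0.33) were higher, where 7.23% of all genes passed. In ethanol C57BL/6J the microglia mean was 8.24 to 8.27, and 0 of 13 passed in that comparison, with 2 lower and 0 higher at an unadjusted p below 0.05 in limma. Across the 27 BXD strains, Cd14 and the microglia mean had a Pearson r of 0.26 (permutation p = 0.20) and a Spearman rho of 0.32 (permutation p = 0.098), adjusted p values 0.37 and 0.33 over 42 relations of members with marker lists. Without the 2 strains farthest from the median of Cd14, r was 0.16.

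Markers of neutrophils and monocytes were higher in saline DBA/2J, like Cd14. The mean of 4 such markers was 5.71 to 5.82 in saline C57BL/6J and 6.09 to 6.25 in saline DBA/2J, without overlap. Of the 4, 1 passed in limma, the antimicrobial peptide gene Camp (0.52, SE 0.13, adjusted p = 0.014), and all 4 were higher at an unadjusted p below 0.05, with differences of 0.28 to 0.55, where 11.9% of all genes were higher and 13.3% lower at that level. After ethanol their mean was 5.67 to 6.04 in C57BL/6J and 5.78 to 6.003 in DBA/2J, and 0 of 4 passed between the lines, with 0 at an unadjusted p below 0.05. Within C57BL/6J 0 of 4 passed after ethanol, with 0 at an unadjusted p below 0.05 in limma, 3 of 4 differences above 0 and a median of 0.05. Within DBA/2J, where Cd14 differed by 0.02, all 4 differences were below 0 (median -0.25), as were those of 6476 of 13196 genes, and 0 passed. The largest there was that of the granule protein gene Ngp (-0.44, unadjusted p = 0.00095, limma adjusted p = 0.16). Their part in the Cd14 difference between saline lines was not tested. Of 4 markers of perivascular and other macrophages 0 passed between the saline lines in limma, with 0 at an unadjusted p below 0.05. After ethanol all 4 had differences above 0 in C57BL/6J (median 0.12), as did 5451 of 13196 genes, with 0 at an unadjusted p below 0.05. In DBA/2J 3 of 4 were below 0 (median -0.03). There was 1 at an unadjusted p below 0.05, Cbr2 (-0.29), beside 4.18% of all genes lower. In either line 0 of the macrophage markers passed. Their mean was 5.47 to 5.72 after saline and 5.66 to 5.76 after ethanol in C57BL/6J, with overlap.

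Markers of meningeal cells and fibroblasts, which line the surface of the cortex, were followed in the same way. After ethanol 10 of 12 had differences above 0 in C57BL/6J, as did 5451 of 13196 genes. The median was 0.16, beside -0.02 over all genes. At an unadjusted p below 0.05 in limma there were 2, Ogn (0.24) and Slc6a20a (0.32), beside 2.17% of all genes higher. In saline DBA/2J 8 of 12 lay above saline C57BL/6J (median 0.15), as did 7208 of 13196 genes. There were 3 at an unadjusted p below 0.05, Col3a1 (0.46), Aldh1a2 (0.33) and Dcn (0.30), beside 11.9% of all genes higher. In the test of unequal responses 11 of 12 were below 0 (median -0.27), as were 5647 of 13196 genes. There was 1 at an unadjusted p below 0.05, Ogn (-0.31), beside 2.88% of all genes lower. None of the 12 passed in limma in these 3 comparisons. Between the lines after ethanol 1 passed as higher and 2 as lower in DBA/2J (median -0.15), where 7.23% of all genes passed. Within DBA/2J 10 of the 12 markers were below 0 after ethanol (median -0.07), as were 6476 of 13196 genes, and 0 passed. Their mean was 7.48 to 7.79 in saline C57BL/6J, 7.72 to 7.91 in ethanol C57BL/6J and 7.67 to 7.91 in saline DBA/2J, so the groups overlapped. The part of the macrophage and meningeal markers in the Cd14 values was not tested.

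Across the BXD strains Cd14 ranged from 6.03 to 6.90 (median 6.4) after saline and from 5.79 to 6.86 (median 6.42) after ethanol. The highest of all 66 arrays was saline BXD12, which was also highest for the neutrophil and monocyte markers S100a9 (7.25) and Ngp (6.27). The other markers of that list in the fit, Ccr2 and Camp, were highest in a saline DBA/2J array. The part of such cells in the BXD levels of Cd14 was not tested. Of the 27 saline BXD arrays, 2 lay at or below the highest saline C57BL/6J array, 12 lay between the progenitors, and 13 lay at or above the lowest saline DBA/2J array, 4 of them above its highest. Strains differed by more than the arrays of 1 strain did. The strain effect passed (limma moderated F = 4.47, adjusted p = 4.9e-04), where 20.4% of all genes passed, and the intraclass correlation, the share of variance that lies between strains, was 0.60. The saline and ethanol arrays of a strain correlated with r = 0.61 (permutation p = 7.5e-04, adjusted over 7 genes 0.0052) and rho = 0.71 (permutation p = 6.0e-05, adjusted 4.2e-04), and r was 0.58 without BXD01 and BXD12, the strains farthest from the median. BXD18 had the highest strain mean (6.77 after saline, 6.85 after ethanol) and BXD19 the lowest (6.34 and 5.81).

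**Figure D3:**
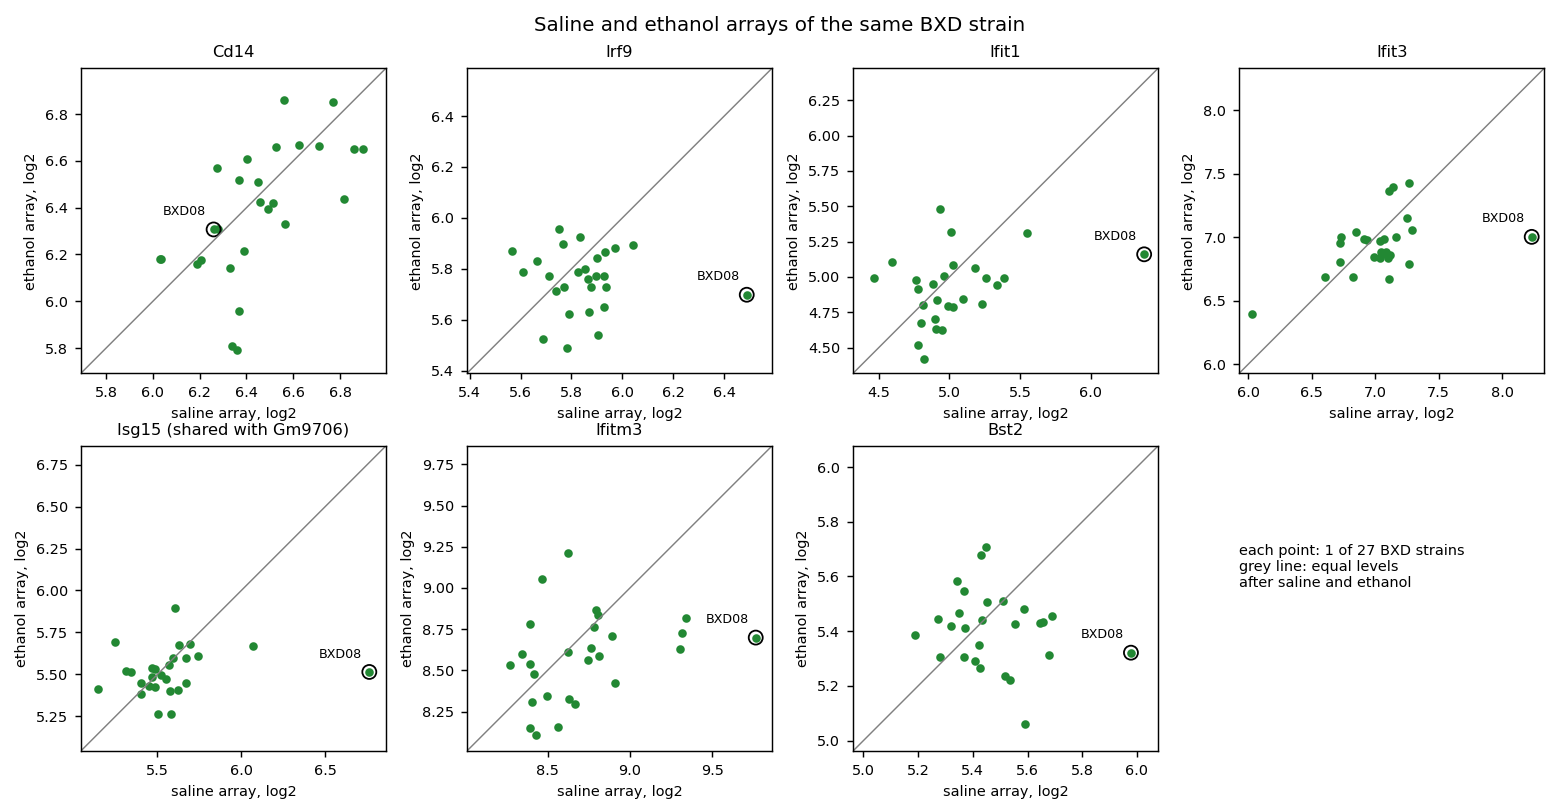
Log2 level after saline (horizontal) and ethanol (vertical) for each of the 27 BXD strains, 1 panel per gene; the grey line marks equal levels and BXD08 is circled. Cd14 and Ifit3 spread along the line (r = 0.61 and 0.48), while Irf9 and Bst2 show no such relation (r = -0.05 and -0.19, and 0.04 and -0.15 without BXD08).

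The genes whose strain means were most like those of Cd14, by Pearson r over 27 strains, were Inafm2 (0.70), Rnf215 (0.68), Tmco6 (0.67), Rxrg (0.66) and Islr2 (0.65). The first 4 kept ranks 1 to 4 without BXD08. Tmco6 is also the next gene after Cd14 on its chromosome. It was at 6.13 ± 0.06 in saline C57BL/6J and 6.74 ± 0.16 in saline DBA/2J (SD, n = 3 each), a difference of 0.61 (SE 0.10, limma adjusted p = 9.0e-04). After ethanol Tmco6 was at 6.09 ± 0.14 and 6.70 ± 0.13 (SD, n = 3 each), again a difference of 0.61 (SE 0.10, limma adjusted p = 9.7e-04). The line difference of Tmco6 passed after both treatments, and that of Cd14 after saline only. The change in the Cd14 line difference did not pass (-0.30, limma adjusted p = 0.59), and Cd14 and Tmco6 were not tested against each other. The intraclass correlation of Tmco6 across BXD strains was 0.71. Over strain means Cd14 and Tmco6 had r = 0.67 (permutation p = 2.2e-04, adjusted 0.0020) and rho = 0.61 (permutation p = 9.5e-04, adjusted 0.0085) over the 9 neighbours of members that were in the fit, and r = 0.66 without 2 strains.

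**Figure D4:**
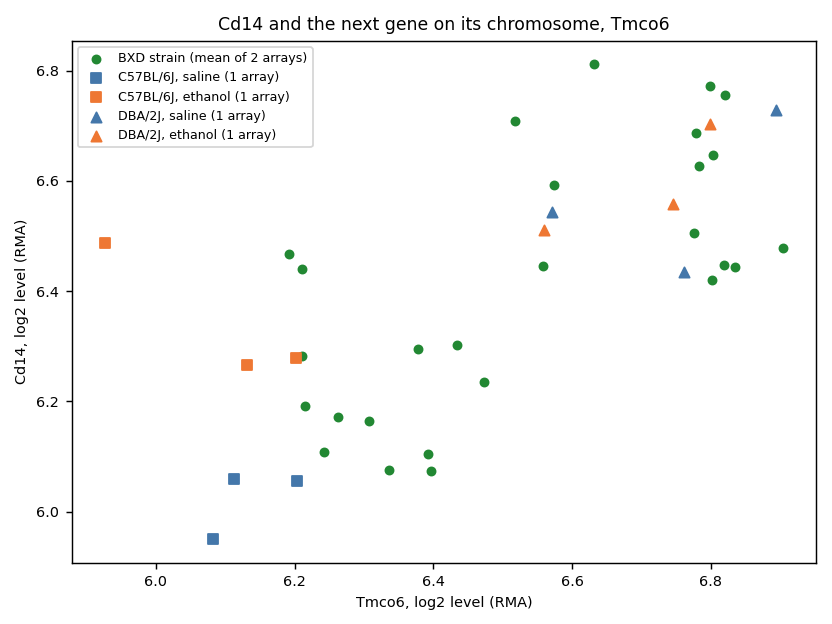
Log2 levels of Tmco6 (horizontal) and Cd14 (vertical) for 27 BXD strain means (green), and for single C57BL/6J (squares) and DBA/2J (triangles) arrays after saline (blue) and ethanol (orange). The DBA/2J arrays lie higher on both axes than saline C57BL/6J, and the 3 ethanol C57BL/6J arrays differ from the saline ones in Cd14 (mean 6.34 against 6.02) but overlap them in Tmco6 (mean 6.09 against 6.13).

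In the pathway of Cd14, 25 genes of lipopolysaccharide recognition and signalling were in the fit. After saline 2 were higher in DBA/2J, Lbp (0.67), which encodes the plasma protein that delivers lipopolysaccharide to Cd14, and the kinase adaptor Tab1 (0.32). Lower in DBA/2J were 2, Ptgs2 (-1.38), the inducible prostaglandin synthase, and Tnfaip3 (-0.41), an inhibitor of NF-kappaB. In this comparison 10.3% of all genes passed. The median of the list was 0.06, beside 0.02 over all genes. After ethanol Tab1 (0.29) and Ptgs2 (-1.04) passed, where 7.23% of all genes did. Tlr4 and Ly96, the receptor and its partner, were not in the fit. In none of the 3 ethanol comparisons and not in the test of unequal responses did limma call a member of the list. At an unadjusted p below 0.05 there were 3 of 25 in BXD, 1 higher and 2 lower, beside 1.35% and 3.58% of all genes. There were 0 in C57BL/6J (2.17% and 2.81% of all genes) and 0 in DBA/2J (8.28% and 4.18%). In the test of unequal responses 1 was lower, the chemokine gene Ccl4, beside 5.43% of all genes higher and 2.88% lower.

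The 6 interferon-response genes did not differ between progenitors beyond their spread. None passed in limma after saline or after ethanol, where 10.3% and 7.23% of all genes passed (5.76% and 4.31% of all probe sets). At an unadjusted p below 0.05 there was 1, Ifit1 after ethanol, where 12.8% of all genes were higher and 7.14% lower in DBA/2J at that level. It had levels of 4.54, 4.81 and 4.96 in C57BL/6J and 4.90, 5.11 and 5.13 in DBA/2J. These groups overlapped, and the difference was 0.28 (SE 0.13, limma adjusted p = 0.33). The other differences between lines ranged from -0.18 for the Isg15 probe set after saline to 0.16 for the same probe set after ethanol. The differences of Irf9 and Ifit3 between lines after saline, 0.03 and -0.0009, changed sign with another normalization.

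The response to ethanol of these 6 genes was tested in both progenitors with 3 arrays per group, which left wide intervals. For the Isg15 probe set the 95% interval was -0.45 to 0.16 in C57BL/6J and -0.11 to 0.50 in DBA/2J. In C57BL/6J 0 of 6 passed in limma, where 0.00758% of the genes tested passed, and none reached an unadjusted p of 0.05. Their differences ranged from -0.14 (Isg15) to 0.15 (Bst2). In DBA/2J 0 of 6 passed, where 0% of the genes tested did, and again none reached an unadjusted p of 0.05. Ifitm3 was at 8.26, 8.29 and 8.59 after saline and at 8.56, 8.60 and 8.61 after ethanol in DBA/2J. The highest saline array reached into the ethanol range, and the difference was 0.21 (SE 0.11, limma adjusted p = 0.44). Differences in DBA/2J ran from -0.02 (Irf9) to 0.21 (Ifitm3), and 5 of 6 were above 0, as were 50.9% of all genes. The sign of Irf9 turned with another normalization. The difference between the 2 responses was largest for the Isg15 probe set (0.34, 95% interval -0.09 to 0.77, limma adjusted p = 0.72), and 0 of 6 passed, beside 0% of all genes. None of the 6 had an unadjusted p below 0.05, where 5.43% of all genes had a higher and 2.88% a lower response in DBA/2J.

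Across the 27 BXD strains the 7 genes all had lower means after ethanol, in a comparison in which 62.4% of all genes did. Irf9 had a mean of 5.85 ± 0.17 after saline and 5.76 ± 0.12 after ethanol (SD, n = 27) and was lower in 20 of 27 strains. Its paired difference was -0.09 (SE 0.04, unadjusted p = 0.029, limma adjusted p = 0.93). Ifitm3 had means of 8.72 ± 0.36 and 8.58 ± 0.27 and was lower in 18 strains, with a difference of -0.13 (SE 0.07, unadjusted p = 0.049, limma adjusted p = 0.96). Both ranges overlapped widely.

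The other differences were -0.11 for Ifit1, -0.09 for Ifit3, -0.07 for Bst2, -0.06 for the Isg15 probe set and -0.06 for Cd14, the latter lower in 15 of 27 strains. None of the 7 passed in limma, beside 0.00758% of all genes (0.00444% of all probe sets), and 0 passed by the Wilcoxon signed-rank test. At an unadjusted p below 0.05 there were 2 in limma, where 3.58% of all genes were lower at that level, and 0 in the Wilcoxon test. Without BXD08 the differences were -0.06 for Irf9 (unadjusted p = 0.063), -0.10 for Ifitm3 (0.11), -0.07 for Ifit1, -0.04 for Ifit3, -0.05 for Bst2 and -0.01 for the Isg15 probe set, with limma adjusted p values from 0.987 to 0.9995. Cd14 stayed at -0.06.

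Over the same comparison, of 47 other interferon-induced genes 0 passed in limma, with 1 higher and 4 lower at an unadjusted p below 0.05 (1.35% and 3.58% of all genes) and a median of -0.03 beside -0.01 over all genes. Without BXD08 there were 0 higher and 4 lower, and the median was -0.02. Of the 47 genes Ifi47, a GTPase gene, had the smallest p (-0.13, SE 0.04, limma adjusted p = 0.68). Of 18 receptor and signalling genes 0 passed and 2 were lower at an unadjusted p below 0.05, Ifngr1 (-0.08), a chain of the interferon gamma receptor, and the phosphatase gene Ptpn6 (-0.06). Of 13 microglia markers 0 passed, 12 had negative differences and 5 were lower at an unadjusted p below 0.05, with a median of -0.06. Without BXD08 11 were negative, 1 was lower at that level and the median was -0.05. The part of the microglia markers in the small differences of the members was not tested. In DBA/2J, 6 of the 47 interferon-induced genes were higher and 0 lower at an unadjusted p below 0.05, beside 8.28% of all genes higher and 4.18% lower, led by the nucleotide kinase gene Cmpk2 (0.48) and Ifit2 (0.35), and 0 passed. In C57BL/6J the counts were 1 and 0, and 0 passed.

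Strain differences among the interferon-response genes were clearest for Ifit3. Its strain effect passed (limma F = 3.0, adjusted p = 0.012, intraclass correlation 0.43). Ifit3 was low in both arrays of BXD15 (6.03 after saline, 6.4 after ethanol) and of BXD14 (6.60 and 6.69), and high in both arrays of BXD01 (7.27 and 7.43) and BXD38 (7.14 and 7.40). The highest strain mean was that of BXD08, from its saline array alone. Without BXD08 the intraclass correlation rose to 0.59 (limma adjusted p = 9.2e-04). Without BXD15 it was 0.26 and the adjusted p 0.10, so the call rested on that strain. The saline and ethanol arrays of Ifit3 had r = 0.48 (permutation p = 0.015, adjusted 0.052) and rho = 0.47 (permutation p = 0.014, adjusted 0.051). Without BXD08 r was 0.60 (adjusted permutation p = 0.0062), and without BXD08 and BXD15 it was 0.41 (adjusted 0.15).

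Ifitm3 had an intraclass correlation of 0.30 (limma adjusted p = 0.061), which did not pass. With repeated quantile normalization it was 0.32 and passed (limma adjusted p = 0.049). Its saline arrays of BXD12, BXD18 and BXD32 lay at 9.30 to 9.34, above all other arrays but saline BXD08, while the ethanol arrays of these strains lay at 8.63 to 8.82. Saline BXD32 was also highest of all arrays for the meningeal markers Col1a1, Col1a2, Col3a1, Aldh1a2 and Fmod, and saline BXD18 for Slc6a20a and Ptgds. The other markers of that list, Dcn, Lum, Ogn, Igf2 and Slc22a6, were highest elsewhere. Saline BXD12 was highest for S100a9 and Ngp. The part of these markers in the Ifitm3 values was not tested. Leaving out BXD01, BXD21 or BXD33 brought the adjusted p of Ifitm3 for strain to between 0.031 and 0.044. The intraclass correlation of Ifit1 was 0.31 (limma adjusted p = 0.087, beside 11.9% of all probe sets that passed) and that of the Isg15 probe set 0.13 (0.35). Without BXD08 they were 0.28 (0.14) and 0.29 (0.21). For Irf9 and Bst2 it was -0.05 and -0.19, that is, the arrays of 1 strain were no more alike than those of different strains, and 0.04 and -0.14 without BXD08. In all 2 of the 7 genes, Cd14 and Ifit3, passed for strain, beside 20.4% of all genes. Of the 47 other interferon-induced genes 16 did (15 without BXD08), led by Tor3a (intraclass correlation 0.81), Xaf1 (0.80) and Trim30a (0.79), and of 18 receptor and signalling genes 2, Ifnar1 (0.48) and Ifnb1 (0.41).

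Between the progenitors the same lists were also read against all genes, of which 10.3% passed after saline and 7.23% after ethanol. After saline 1 of the 47 genes was higher in DBA/2J, Tor3a (0.68), and 3 were lower, Xaf1 (-0.70), a regulator of apoptosis, Igtp (-0.35) and Nmi (-0.30). After ethanol Tor3a (0.57), Igtp (-0.64) and Xaf1 (-0.72) passed. Ifnar1, a chain of the type I interferon receptor, was higher in DBA/2J after saline (0.32, limma adjusted p = 0.024) and after ethanol (0.41, limma adjusted p = 0.0064). Irf3, which switches on interferon genes, was lower after saline (-0.34, limma adjusted p = 0.020). After ethanol Irf3 did not pass, with means of 7.82 in DBA/2J and 7.77 in C57BL/6J. The test of unequal responses called 0 of the 18 receptor and signalling genes and 0 of the 47, so no change of these line differences with ethanol passed. The medians of the 47 genes were 0.02 after saline and -0.0014 after ethanol, beside 0.02 and 0.03 over all genes.

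How the 7 genes varied together was examined over the means of both arrays of each strain, with 21 pairs and permutation p values adjusted over them. Over 27 strains 9 of the 15 pairs among the 6 interferon-response genes passed, and r ranged from 0.06 to 0.76 (median 0.56). Without the 2 strains farthest from the median 3 of 15 passed, and without BXD08 3 of 15, with a median r of 0.24. These 3 were Ifit1 with Ifitm3 (r = 0.68, adjusted permutation p = 0.0044; rho = 0.67, adjusted 0.0046), Ifit3 with Ifitm3 (r = 0.55, adjusted 0.024; rho = 0.54, adjusted 0.032) and Ifit1 with Ifit3 (r = 0.53, adjusted 0.042; rho = 0.50, adjusted 0.035). By rank 6 of 15 passed without BXD08, adding Irf9 with Ifit1 (rho = 0.51), Ifit3 (0.56) and Ifitm3 (0.52). Bst2 passed with no other gene, and its r without BXD08 lay between -0.20 and 0.14 among these pairs. Cd14 passed with 0 of the 6, with r from -0.27 to 0.04 over 27 strains.

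**Figure D5:**
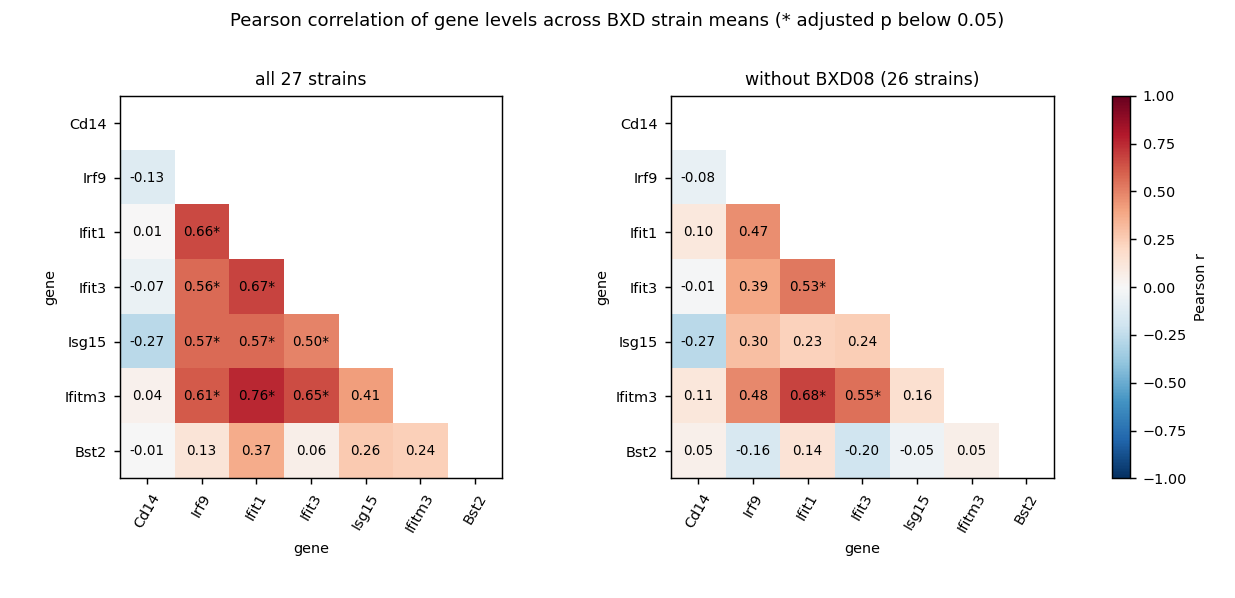
Pearson correlation of gene levels over BXD strain means for the 21 pairs of the 7 genes, with all 27 strains (left) and without BXD08 (right); an asterisk marks an adjusted permutation p below 0.05. Of 15 pairs among interferon-response genes 9 are marked on the left and 3 on the right, and Cd14 has no marked pair in either.

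The 1 saline array carried much of this relation. In saline arrays alone 11 of the 15 pairs passed with BXD08 and 0 without it. In ethanol arrays alone 1 of 15 passed, Ifit3 with Ifitm3, and again 1 without BXD08. For the ethanol minus saline differences of the strains 10 of 15 passed with BXD08 and 0 without it.

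The genes most like each interferon-response gene over the 27 strain means shared several names. Rtp4 was among the 5 nearest of Ifit1 (r = 0.82), Ifitm3 (0.80), Ifit3 (0.72), the Isg15 probe set (0.66) and Irf9 (0.64). Without BXD08 these values were 0.69, 0.75, 0.60, 0.37 and 0.42. Lgals3bp was near Ifit1 (0.81, and 0.71 without BXD08), and Lgals9 and the microglia gene Aif1 near Ifit3 (0.68 and 0.66, and 0.54 and 0.61 without BXD08). Ifitm3 was most like the lysozyme genes Lyz2 (0.84, and 0.81 without BXD08) and Lyz1 (0.82 and 0.80), which have similar sequences and may share probes. Irf9 was nearest to Ly6e (0.70, and 0.61 without BXD08) and the Isg15 probe set to Slc23a2 (0.70 and 0.69). Bst2 was nearest to 2310001K24Rik (0.70 and 0.69), Setd1a (0.65) and the chemokine gene Cxcl16 (0.65).

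Of the members' direct neighbours, Ifit2 beside Ifit3 had r = 0.57 (permutation p = 0.0019, adjusted over 9 neighbours 0.0079; rho = 0.45, adjusted 0.045) and 0.52 without BXD08, but 0.28 without BXD08 and BXD15. Ifitm1 beside Ifitm3 had r = 0.56 (permutation p = 0.0026, adjusted 0.0079; rho = 0.58, adjusted 0.0087), 0.56 without 2 strains and 0.62 without BXD08. The Ifit and Ifitm genes are families of similar sequence, so probes of 1 member may also bind another. Agrn beside Isg15 had r = 0.51 (permutation p = 0.0057, adjusted 0.013; rho = 0.55, adjusted 0.0091), 0.41 without 2 strains and 0.42 without BXD08.

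Over marker lists, the 47 other interferon-induced genes as a mean had r = 0.72 with Ifitm3 (permutation p = 1e-05, the smallest these permutations can give, adjusted 4.2e-04; rho = 0.69, adjusted 0.0059), 0.63 without 2 strains and 0.64 without BXD08. For Ifit1 r was 0.76 (adjusted permutation p = 8.4e-04; rho = 0.59, adjusted 0.034), 0.49 without 2 strains and 0.58 without BXD08. For Ifit3 and Irf9 r was 0.64 and 0.55 (adjusted permutation p = 0.017 and 0.049), 0.44 and 0.13 without 2 strains and 0.46 and 0.27 without BXD08. Their rho, 0.47 and 0.31, did not pass (adjusted 0.098 and 0.33). None of the other relations, those with microglia, macrophage, endothelial, meningeal and astrocyte markers, passed the adjustment, and for Cd14 no relation did. Neutrophil and monocyte markers were not among the lists correlated with the members. Ifitm3 and the meningeal mean had r = 0.47 (permutation p = 0.013, adjusted 0.093) and rho = 0.48 (adjusted 0.098), and r was 0.51 without BXD08.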

How the data were processed

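Medial prefrontal cortex RNA was measured on 66 arrays, and the authors deposited 1 log2 value per probe set and array, made by RMA with the affy package per the submitters' processing notes (no version, batch correction or chip definition was given in the sources used here). Array medians lay between 5.67 and 5.77, and the number of arrays limits the precision. The platform annotation gave 34945 probe sets 1 symbol, 932 several and 9160 none. The brightest probe set of each gene with 1 symbol was kept if its mean over 66 arrays reached the 40th percentile, log2 5.10, which left 13196 genes.

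Values were fitted with limma 3.58.1 in R 4.3.3 (package data.table, version 1.17.8), with Benjamini-Hochberg adjustment over all genes. The 12 progenitor arrays shared 1 fit by line and treatment, and BXD fits had strain as a block. Progenitor replicate numbers do not pair arrays: deviations of same-numbered arrays had correlations of -0.39 to 0.26. Strain pairs the BXD arrays, by the labels, and over 200 genes 27 of 27 saline and 27 of 27 ethanol arrays correlated best with their strain. Correlations used 100000 permutations. The scripts were tested on simulated data.

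Members and lists were chosen with earlier results of these data known. Genes named beside the members are list genes that passed (up to 6 a direction by p) or else the 3 with the smallest p, the 5 most alike in level over strains, and direct neighbours; BXD08 genes were named after their values were seen. Alternatives changed the filter, probe sets, scaling, prior, block, test, samples and strains. Promoter windows came from RefSeq (GRCm38.p6), and Cd14 had none in that table. The Ifit3 stretch is not reported here.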

Additional observations from a re-analysis of the deposited data

How the results depend on the processing

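The Cd14 difference between saline DBA/2J and C57BL/6J kept its direction and its call under every alternative run (0.50 to 0.55, and 0.47 to 0.61 without 1 array), and the Cd14 strain effect under every strain left out. Alternatives without BXD08, by rank, or leaving out strains from the strain effect were added after seeing the data. Each member has 1 probe set, so other probe sets could not be tried. The causes of the changes below were not tested.

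Counts of genes past the threshold moved as follows. The BXD ethanol count was 1, 2 with repeated quantile normalization or all probe sets, and 1 to 4 without 1 strain. The C57BL/6J ethanol count was 1, 0 with the replicate block or with all 66 arrays in 1 fit, 2 with all probe sets, and 0 to 2 without 1 array; the replicate numbers pair no arrays. The DBA/2J ethanol count was 0, 1 with median centring, 30 with all 66 arrays, 22 with a trended and robust prior, and 0 to 4 without 1 array. With all probe sets 2596 passed in the saline and 1943 in the ethanol line comparison and 5345 for strain, beside 1365, 954 and 2688; without 1 array the line counts were 848 to 1249 and 640 to 870.

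Small differences turned sign. Irf9 in DBA/2J after ethanol was 0.0024 with median centring and 0.0032 with repeated quantile normalization, and between saline lines -0.013 and -0.011; Ifit3 between saline lines was 0.017 with repeated quantile normalization, and its difference of responses 0.036 with median centring. Without 1 array the C57BL/6J ethanol differences ran from -0.10 to 0.015 (Irf9), -0.048 to 0.16 (Ifit1) and -0.011 to 0.14 (Ifitm3), and those of DBA/2J from -0.045 to 0.10 (Cd14), -0.083 to 0.047 (Irf9) and -0.0041 to 0.20 (Ifit3). Differences of responses ran from -0.051 to 0.080 (Irf9), -0.12 to 0.083 (Ifit3) and -0.058 to 0.15 (Bst2), saline line differences from -0.017 to 0.056 (Irf9) and -0.097 to 0.11 (Ifit3), and ethanol line differences from -0.022 to 0.11 (Irf9), -0.11 to 0.060 (Ifit3) and -0.022 to 0.13 (Ifitm3). Members past the threshold for strain numbered 1 to 3 without 1 strain (1 without BXD15), with intraclass correlations of 0.26 to 0.59 for Ifit3 and 0.26 to 0.36 for Ifitm3.

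Correlations near 0 turned sign for Cd14 with Bst2 (0.021 in saline arrays, 0.049 without BXD08), Irf9 (0.092 in ethanol arrays), Ifit1 (-0.20 in ethanol arrays, -0.031 without 2 strains, -0.089 by rank) and Ifitm3 (-0.084 in ethanol arrays, -0.012 by rank). Those of Bst2 turned with Irf9 (-0.052 without 2 strains, -0.16 without BXD08, -0.023 by rank), Ifit3 (-0.15, -0.20 and -0.035) and Isg15 (-0.053 without BXD08). Of 9 pairs past the threshold, ethanol arrays alone gave 1, and leaving out 2 strains or BXD08 gave 3; the 10 pairs of ethanol minus saline differences became 0 without BXD08. Saline with ethanol levels of Irf9 correlated at 0.14 without 2 strains and 0.039 without BXD08, and 2 members in place of 1 passed without BXD08.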
